A study of Mus musculus with 8 samples.

Results

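Common fragile site genes are long genes in which chromosomes tend to break when DNA replication is impeded, and 10 of them were followed here in the R-loop map of mouse muscle stem cells (MuSCs): Fhit, Wwox, Magi2, Immp2l, Macrod2, Exoc4, Auts2, Lrp1b, Ctnna3 and Lsamp. All rows of the peak table that named one of these genes were taken, which gave 69 of 28265 union peaks (regions of S9.6 signal unified over all libraries). All 10 genes carried at least 1 peak, among 8490 genes with a peak in the whole table. The data were DNA-RNA immunoprecipitation sequencing (DRIP-seq) of 3 Ctrl libraries, genotype Pax7CreERT/Suv4-20h1WT, and 3 Kmt5b sKO libraries, genotype Pax7CreERT/Suv4-20h1KO. Both groups carry the Pax7CreERT driver, a tamoxifen-inducible Cre made only where Pax7 is active, so that in the mutant the gene is lost from MuSCs and not from the rest of the muscle. Tamoxifen was given to adult mice, and all strains were on a C57BL/6 background. Kmt5b, also called Suv420h1, encodes an enzyme that adds the second methyl group to lysine 20 of histone H4. Cells were taken from limb and trunk muscle by magnetic sorting and were grown in culture, so the libraries describe proliferating MuSCs and not cells in their niche. The labels number the libraries within a genotype but do not tie a number to an animal. The p-values rest only on the spread between these libraries. That spread was taken from a trend over all tested values and not from each peak's own scores.

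An R-loop forms when RNA pairs with its DNA template and leaves the other DNA strand single, and the S9.6 antibody binds the RNA:DNA hybrid. Genes at common fragile sites are so long that transcribing one can take most of a cell cycle, they tend to replicate late and they hold few replication origins. Collisions of transcription and replication, with R-loops at the site, are a widely studied route to their breakage.

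The summed score over all union peaks, in spike-in scaled units, ranged from 3893768 to 4729631 in the Ctrl libraries and from 4699599 to 4930261 in the Kmt5b sKO libraries, and Ctrl replicate 2 was the highest Ctrl library. These scores are normalised values and the reads behind each score are unknown. As a check of the labelled cell type, peaks were found in 5 of 9 muscle stem cell marker genes (Pax7, Myod1, Itga7, Des and Sdc4), in 2 of 4 endothelial marker genes (Pecam1 and Tek, the higher summing to a score of 161, against up to 2775 in a muscle stem cell marker), and in 0 of 4 fibro-adipogenic and 0 of 3 immune marker genes. An R-loop is not a measure of expression, and no RNase H-treated library, in which hybrids are digested, was used here.

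The genes were placed on GRCm38 by GENCODE vM21. The tumour suppressor genes Fhit and Wwox were at chr14:9550092-11162035 (- strand, ENSMUSG00000060579) and chr8:114439655-115352708 (+ strand, ENSMUSG00000004637). The enzyme genes Macrod2 and Immp2l were at chr2:140395309-142392966 (+ strand, ENSMUSG00000068205) and chr12:41024090-41955588 (+ strand, ENSMUSG00000056899). The receptor gene Lrp1b was at chr2:40595246-42653624 (- strand, ENSMUSG00000049252), and the adhesion and junction genes Lsamp, Magi2 and Ctnna3 were at chr16:39984361-42181679 (+ strand, ENSMUSG00000061080), chr5:19227036-20704792 (+ strand, ENSMUSG00000040003) and chr10:63430098-65003667 (+ strand, ENSMUSG00000060843). Exoc4 was at chr6:33249085-33973979 (+ strand, ENSMUSG00000029763) and Auts2 at chr5:131437333-132543344 (- strand, ENSMUSG00000029673).

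The R-loop peaks were unevenly divided among the genes. Exoc4, which encodes a subunit of the exocyst that tethers secretory vesicles to the plasma membrane, held 38 of the 69 peaks, or 5.24 peaks per 100 kb of gene. Lrp1b held 6 peaks, Magi2, Auts2 and Lsamp 5 each, Macrod2 3, Wwox, Immp2l and Ctnna3 2 each, and Fhit 1. Outside Exoc4 the density lay between 0.0620 peaks per 100 kb in Fhit and 0.452 in Auts2. Among the 531 other autosomal protein-coding genes of 300 kb or more, 161 (30.3%) had no peak and the median was 0.259 peaks per 100 kb, with quartiles of 0 and 0.953. Ranked with those genes by density, Exoc4 was at position 30 of 541, and the other fragile site genes lay between positions 197 (Auts2) and 380 (Fhit). The 65 other genes of 900 kb or more, the length reached by each fragile site gene except Exoc4, had a median of 2 peaks and 0.182 peaks per 100 kb, a density that 6 of the 9 fragile site genes of that length exceeded. No test was made of these densities.

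**Figure D1:**
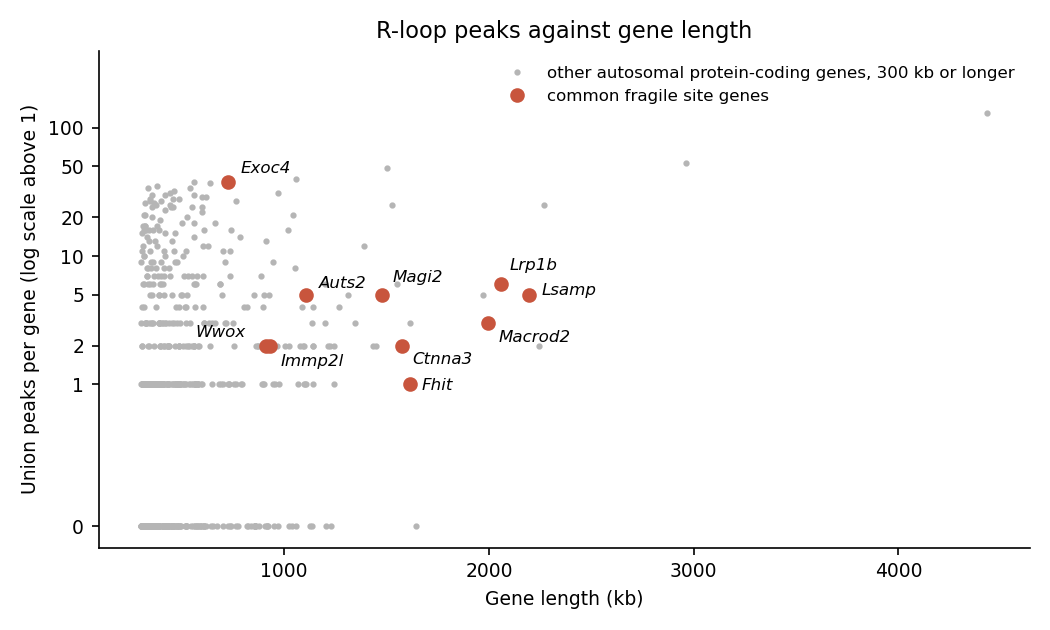
Number of union peaks in a gene (vertical axis, linear from 0 to 1 and logarithmic above) against gene length in kb (horizontal axis), for the 10 common fragile site genes (red, named) and 531 other autosomal protein-coding genes of 300 kb or more (grey). Exoc4 has 38 peaks, and the other fragile site genes have from 1 to 6.

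The peaks lay far from the outermost annotated start of each gene, which is the transcription start site (TSS) used here. None of the 69 had its centre within 1000 bp of that TSS, and the nearest was an Exoc4 peak 49915 bp downstream. Some shorter annotated transcripts do start inside a peak, as at 131460151 and 131477024 in Auts2, or beside one, as at 33862100 in Exoc4. Such starts were not used for the distances to the TSS. Introns alone held 64 of the peaks, and the 5 that touched exons were 2 in Auts2 and 3 in Exoc4. An annotation by any overlap with the gene body returned the same number of peaks, 69. The peaks were laid out in different ways, and the division used here was made after the values were seen. Exoc4 was studded with peaks over 86.9% of its length, and these peaks covered 15.6% of the gene. Auts2 carried 4 broad neighbouring peaks at its 3′ end and a single small intronic peak. The 8 remaining genes, 12761 kb long together, held 26 isolated intronic peaks of 200 to 2200 bp that covered 26.2 kb in all.

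**Figure D2:**
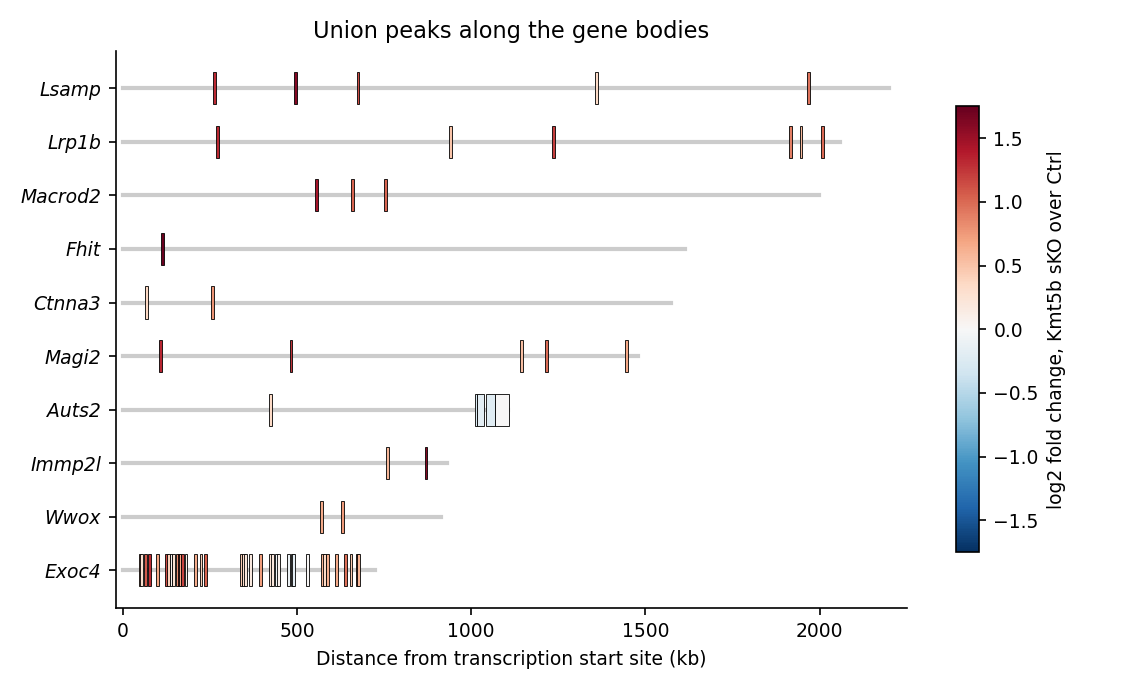
Position of each of the 69 union peaks by distance from the transcription start site in kb (horizontal axis), with each gene drawn to its length (grey line). Box width is peak length, with a minimum drawn width of 8 kb so that short peaks are visible, and colour is the log2 fold change of Kmt5b sKO over Ctrl under the spike-in scaling, also for the 8 peaks below the level filter. Isolated red peaks are seen in 8 genes, a row of 38 peaks in Exoc4 and a block of 4 white to pale blue peaks at the end of Auts2. After centring on the median peak, 17 of the 19 tested isolated peaks stayed above 0 and the 4 Auts2 peaks were all below 0. The median over all tested peaks was then −0.13. All tested peaks also differed by length. Under the spike-in scaling their median was 0.76 under 2000 bp and 0.094 at 4000 bp or more.

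The sequence under the isolated peaks often held long stretches of only purines (A and G) or only pyrimidines (C and T) on a strand. This feature was noticed in the sequences and then counted, so it carries no test. A stretch of at least 30 such bases was present in 15 of the 26 isolated peaks (57.7%), with pyrimidines on the transcribed gene's sense strand in 10 and purines in 5. Of the 24 isolated peaks shorter than 2000 bp, 14 held one (58.3%), against 40.9% of the 11882 other autosomal union peaks of that size and 4 of 13 such peaks in Exoc4. Of the 12700 windows of 1000 bp that tile the same 8 genes outside the peaks, 11.2% held one. All 3 Macrod2 peaks, both Wwox peaks, 3 of 5 Magi2 peaks and 3 of 5 Lsamp peaks had such a stretch, the longest being 180 bases in Macrod2. In Lrp1b 2 of 6 peaks had one, in Immp2l 1 of 2, in Ctnna3 1 of 2 and in Fhit 0 of 1. The longest stretch is shown for 6 of the genes in a 100-base window of the sense strand (GRCm38.p6), 5′ to 3′. The stretch is in capitals because it is the feature counted here, which not every isolated peak held. In Macrod2 and Lrp1b the stretch, of 180 and 128 bases, runs beyond the window. The Magi2 peak shown was under the level of 30 needed for a test of genotype, and the Lrp1b and Ctnna3 peaks shown were tested and not called. The share of soft-masked (repeat) bases in the isolated peaks had a median of 44.2%, against 27.6% over all autosomal peaks, and the part of repeats in these scores was not tested.
Wwox, chr8:115069884-115069983, strand +: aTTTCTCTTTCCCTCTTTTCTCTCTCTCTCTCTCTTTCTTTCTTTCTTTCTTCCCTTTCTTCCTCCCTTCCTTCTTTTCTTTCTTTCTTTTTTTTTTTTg
Magi2, chr5:19335850-19335949, strand +: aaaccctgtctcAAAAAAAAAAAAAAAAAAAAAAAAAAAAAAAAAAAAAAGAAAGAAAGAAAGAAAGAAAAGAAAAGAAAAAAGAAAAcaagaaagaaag
Immp2l, chr12:41893905-41894004, strand +: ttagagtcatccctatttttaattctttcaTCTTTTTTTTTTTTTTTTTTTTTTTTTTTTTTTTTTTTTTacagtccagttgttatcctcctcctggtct
Macrod2, chr2:141149562-141149661, strand +: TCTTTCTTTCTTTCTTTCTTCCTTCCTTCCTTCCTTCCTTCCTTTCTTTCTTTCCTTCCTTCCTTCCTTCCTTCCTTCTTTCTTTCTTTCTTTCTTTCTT
Lrp1b, chr2:40707770-40707869, strand -: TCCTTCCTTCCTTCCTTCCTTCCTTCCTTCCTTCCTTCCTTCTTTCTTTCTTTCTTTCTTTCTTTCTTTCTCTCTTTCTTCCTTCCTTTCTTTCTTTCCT
Ctnna3, chr10:63498300-63498399, strand +: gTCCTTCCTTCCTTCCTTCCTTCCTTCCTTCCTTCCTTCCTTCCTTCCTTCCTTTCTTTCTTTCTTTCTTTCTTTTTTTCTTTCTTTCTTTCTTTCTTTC

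Fhit encodes a diadenosine triphosphate hydrolase and is regarded as a tumour suppressor that lies at a highly fragile human site. Its only peak, at chr14:11047400-11047599 in an intron, was 200 bp long and had the highest score per kb of all 69 peaks when averaged over the 6 libraries, with 43.3 in Ctrl and 153 in Kmt5b sKO. It held a tandem repeat with a period of 36 bases, and 92.7% of its bases were identical to the base 1 period further on. In the sense strand printed here, capitals mark the 5 exact copies of the most frequent 12-base word of that repeat.
Fhit, chr14:11047400-11047599, strand -: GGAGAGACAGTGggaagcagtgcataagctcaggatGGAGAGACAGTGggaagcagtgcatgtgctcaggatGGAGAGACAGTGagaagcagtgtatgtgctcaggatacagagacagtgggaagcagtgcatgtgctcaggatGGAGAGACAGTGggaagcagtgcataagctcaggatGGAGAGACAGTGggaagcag
The Fhit scores were 5, 10 and 11 in Ctrl and 23, 41 and 28 in Kmt5b sKO, so the groups did not overlap. The mean was under the level of 30 that a peak had to exceed to be tested. Without that filter the log2 fold change was 1.74 (limma adjusted p = 0.0086), on a scale where values this low carry little precision. The rest of the 1612-kb Fhit gene had no union peak.

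To ask whether R-loops in fragile site genes differed between genotypes, each peak was compared with limma on log2(score + 1). A peak was called where the adjusted p was below 0.1 and the genotypes differed more than 1.5-fold. Of the 61 peaks tested, 30 (49.2%) were higher and 0 lower in Kmt5b sKO, against a background of 32.9% higher and 0.883% lower over all 25815 tested peaks. None of the tested peaks had a negative fold change at an unadjusted p under 0.05. The median log2 fold change was 0.57, against 0.35 over all tested peaks. All 3 Kmt5b sKO libraries lay above all 3 Ctrl libraries in 41 of the 69 peaks (59.4%), where 41.3% of all autosomal peaks did so, and the reverse held for 1 peak, in Auts2. In pooled cells, a higher level in each cell and a larger share of cells with the R-loop cannot be told apart. Without Ctrl replicate 3 the number of higher peaks was 19 (31.1%, against 27.6% of all peaks in that fit), and leaving out any other library gave from 22 (36.1% against 30.2%) to 29 (47.5% against 34.9%).

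The level of a peak and the scaling both bear on that count. Without the level filter 37 of 69 were called higher, against 33.5% of all autosomal peaks. Of the tested peaks 12 had a Ctrl mean of 30 or less and had passed the filter through their Kmt5b sKO values, and 10 of those were called. With the filter set on the Ctrl mean, 20 of 49 peaks were called higher, against 25.5% of all peaks. Centring each library on its median peak removed a shift common to most peaks and moved the median over all tested peaks from 0.35 to −0.13. The fragile site peaks then counted 7 higher and 4 lower, against 9.61% and 13.1% of all peaks, with a median of 0.10.

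Short peaks were called more often than long ones in the whole table, and 38 of the 69 fragile site peaks were shorter than 2000 bp. Among peaks under 2000 bp, 22 of 30 fragile site peaks were called higher (73.3%), against 59.5% of all. Between 2000 and 4000 bp the count was 6 of 15, against 25.7% of all. At 4000 bp or more 2 of 16 were higher, against 6.25% of all, and both were in Exoc4. From the shortest to the longest class, the fragile site peaks had a median log2 fold change of 0.80, 0.44 and 0.075, and all peaks had 0.76, 0.30 and 0.094. Whether the fragile site peaks differ from other peaks of their length was not tested.

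**Figure D3:**
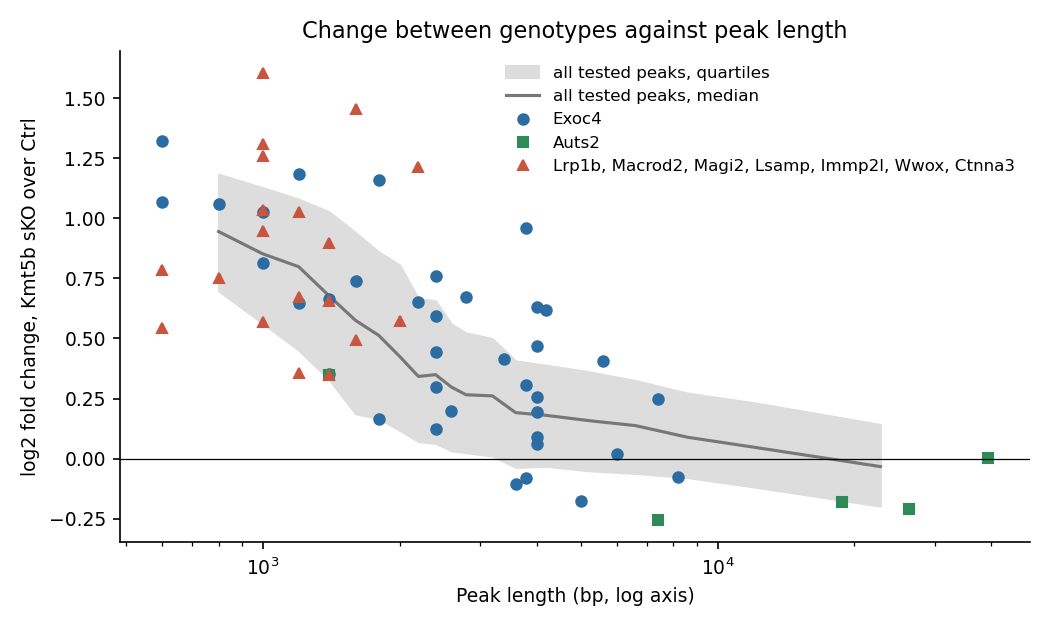
Log2 fold change of Kmt5b sKO over Ctrl (vertical axis, spike-in scaling) against peak length in bp (horizontal axis, logarithmic) for the 61 tested peaks of the fragile site genes, with the median (grey line) and quartiles (grey band) of all tested peaks in bins of length. Short peaks of Exoc4 (blue) and of 7 other genes (red) lie mostly above 0, and the 4 broad Auts2 peaks (green squares, right) lie near or below 0. After centring, 7 of the 61 peaks are called higher and 4 lower, against 9.61% and 13.1% of all tested peaks.

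Summed per gene, all 3 Kmt5b sKO libraries lay above all 3 Ctrl libraries in 9 of the 10 genes, as they did in 45.2% of the 8344 autosomal genes with a peak. The gene-level fit on log2(summed score + 1) tested 9 genes and called 6 higher, Macrod2, Lsamp, Magi2, Lrp1b, Immp2l and Wwox, and 0 lower, against 29.3% higher and 0.262% lower over all 8003 genes tested. No peak of the 6 called genes was longer than 2200 bp. Of all tested peaks under 2000 bp, 59.5% were called higher. A comparison with genes of like peak length was not made. Fhit was too low to be tested. Exoc4 and Ctnna3 were past the adjusted p but below the fold change, and Auts2 was past neither. After centring, Macrod2 was the 1 gene called higher and Auts2 the 1 called lower, against 8.36% and 10.3% of all genes. The other 5 genes kept positive log2 fold changes, from 0.25 in Wwox to 0.57 in Lsamp, below the fold change needed. Wwox also lost its call without Kmt5b sKO replicate 2. The sum over the 26 isolated peaks was 763, 749 and 748 in Ctrl and 1410, 1566 and 1460 in Kmt5b sKO, a ratio of 1.96. These peaks were grouped after their values were seen, 7 were under the level filter, and their Ctrl means ran from 8.67 to 55. Peaks present mainly through Kmt5b sKO raise such a ratio, and neither this sum nor the gene sums were refitted on peaks chosen by Ctrl level. Over all 69 peaks the ratio was 1.14, since Auts2 held 50.3% of the summed score and Exoc4 38.3%, and that ratio was 1.15 over all autosomal peaks.

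**Figure D4:**
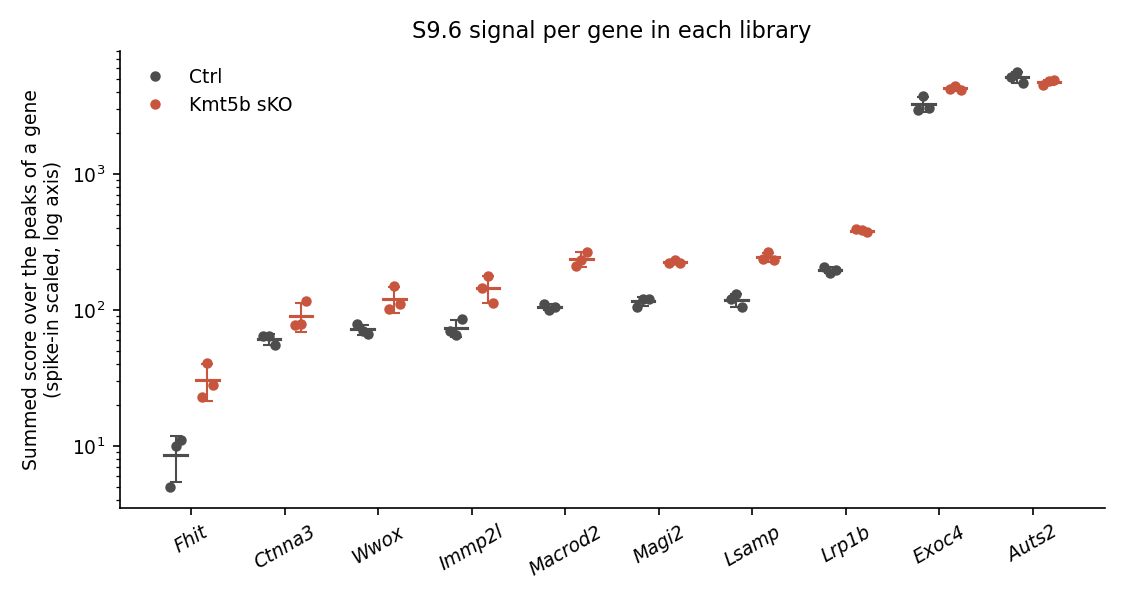
Summed S9.6 score over the peaks of each gene (vertical axis, spike-in scaled units on a logarithmic axis) in each library, for 3 Ctrl (dark) and 3 Kmt5b sKO (red) libraries. Horizontal bars are means and error bars are SD (n = 3). The Kmt5b sKO libraries all lie above the Ctrl libraries in each gene except Auts2, an order found in 45.2% of all autosomal genes with a peak. These are spike-in scaled values, and after centring Exoc4 changes sign.

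Of the 9 fragile site genes tested, Macrod2 had the largest log2 fold change in summed score. Macrod2, which encodes a hydrolase that removes ADP-ribose from proteins, had summed scores of 110, 100 and 105 in Ctrl and 210, 234 and 267 in Kmt5b sKO. The groups were well apart, with a ratio of means of 2.26, and the log2 fold change was 1.16 (SE 0.17, limma adjusted p = 6.6e-10). Its 3 peaks had their centres between 557 and 754 kb downstream of the TSS and all 3 were called. The first, at chr2:140951400-140952999, had scores of 30, 24 and 30 in Ctrl and 74, 71 and 91 in Kmt5b sKO, which is 1.46 on the log2 scale (limma adjusted p = 1.5e-05 in the fit with no level filter). The other Macrod2 peaks, at chr2:141055400-141056399 and chr2:141149000-141150199, had log2 fold changes of 1.03 and 1.02. The Ctrl means of the peaks at 140951400 and 141055400, 28.0 and 28.3, were below the level of 30, so these peaks entered the filtered test only through Kmt5b sKO. Immp2l, which encodes a catalytic subunit of the inner membrane peptidase of mitochondria, had 1 called peak among its 2. That peak, at chr12:41893800-41894799, had scores of 15, 23 and 19 in Ctrl and 45, 91 and 50 in Kmt5b sKO, so Kmt5b sKO replicate 2 was far above the others, and no Ctrl library reached any Kmt5b sKO library. It too entered the filtered test only through Kmt5b sKO. On the log2 scale its difference was 1.60 (limma adjusted p = 8.6e-05 in the fit with no level filter), and 84.2% of its bases were soft-masked. The other Immp2l peak, at chr12:41784000-41785999, had scores of 55, 43 and 67 against 100, 86 and 62, which overlapped, and the log2 fold change was 0.57. Summed over both peaks, Immp2l had 70, 66 and 86 in Ctrl and 145, 177 and 112 in Kmt5b sKO, with no overlap and a gene-level log2 fold change of 0.94 (limma adjusted p = 2.3e-05).

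Lrp1b and Lsamp were called higher on summed score under the spike-in scaling, and after centring neither was called. Both sums include peaks with a Ctrl mean under 30, at 13 to 25.7 in Lrp1b and 11.3 to 22.3 in Lsamp. Lrp1b encodes a large receptor of the low-density lipoprotein receptor family and is often deleted in tumours. Its summed score was 208, 187 and 198 in Ctrl and 392, 385 and 372 in Kmt5b sKO, up by 0.95 on the log2 scale (SE 0.15, limma adjusted p = 1.4e-08). The peak at chr2:41416600-41418799 had the smallest adjusted p of all fragile site peaks, with scores of 46, 59 and 52 in Ctrl and 130, 119 and 118 in Kmt5b sKO, which is 1.22 on the log2 scale (SE 0.22, limma adjusted p = 1.1e-06). The second called Lrp1b peak, at chr2:40736600-40737999, went from 42.3 ± 3.06 to 79.7 ± 6.81 (SD, n = 3 each). Lsamp encodes a membrane-anchored adhesion protein of the immunoglobulin superfamily. Its summed score was 120, 131 and 105 in Ctrl and 237, 266 and 233 in Kmt5b sKO, up by 1.04 on the log2 scale (SE 0.17, limma adjusted p = 1.8e-08). The called Lsamp peaks were at chr16:40247200-40248199, from 22.3 ± 3.06 to 58.3 ± 17.5, and at chr16:41951400-41952399, from 33.0 ± 3.46 to 66.3 ± 19.5 (SD, n = 3 each), and the former passed the level filter only through Kmt5b sKO.

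Magi2 encodes a scaffold protein of cell junctions and synapses. Its summed score was 106, 121 and 121 in Ctrl and 223, 233 and 222 in Kmt5b sKO, with little spread within either group, and the difference on the log2 scale was 0.96 (SE 0.17, limma adjusted p = 4.2e-07). Of its 5 peaks 3 were tested and 2 called, at chr5:19709400-19710399 with a log2 fold change of 1.26 and at chr5:20672400-20673599 with 0.67, a call lost without Ctrl replicate 3 or Kmt5b sKO replicate 3. The former, with a Ctrl mean of 23.3, passed the level filter only through Kmt5b sKO. So did the uncalled peak at chr5:20370600-20371199, with a Ctrl mean of 28, and the 2 untested Magi2 peaks had Ctrl means of 11 and 11.3. All of these peaks are part of the summed score of Magi2. Ctnna3 encodes an alpha-catenin of adherens junctions that is abundant in heart muscle. Its peak at chr10:63688400-63688999 passed narrowly and, with a Ctrl mean of 24.3, only through the Kmt5b sKO level, with scores of 20, 32 and 21 in Ctrl and 39, 31 and 60 in Kmt5b sKO that overlapped between groups, a log2 fold change of 0.79 and a limma adjusted p of 0.099. Leaving out Ctrl replicate 1, Ctrl replicate 3 or Kmt5b sKO replicate 3 ended this call. The second Ctnna3 peak, at chr10:63497200-63498399, was not called, with 37 ± 7 and 47.7 ± 8.50 (SD, n = 3 each). The Ctnna3 sums of 65, 64 and 55 in Ctrl and 78, 79 and 116 in Kmt5b sKO did not overlap, with a gene-level log2 fold change of 0.54 (limma adjusted p = 0.043). Wwox, a tumour suppressor gene encoding an oxidoreductase with WW domains, had 2 called peaks and summed scores of 79, 70 and 67 in Ctrl and 102, 151 and 110 in Kmt5b sKO. At chr8:115069200-115069999 the scores were 41, 34 and 35 in Ctrl and 61, 79 and 50 in Kmt5b sKO, or 0.75 on the log2 scale (SE 0.28, limma adjusted p = 0.025), a call lost without Kmt5b sKO replicate 2. At chr8:115009800-115011199 they were 38, 36 and 32 against 41, 72 and 60, a log2 fold change of 0.66 with a limma adjusted p of 0.066, a call lost without Ctrl replicate 1, Ctrl replicate 3, Kmt5b sKO replicate 2 or Kmt5b sKO replicate 3. The centres of the Wwox peaks lay 571 and 630 kb from the TSS, and in both the groups did not overlap, in the peak nearer the TSS by 3 units of score.

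Exoc4 was the gene with many peaks, and the difference between genotypes varied along it. Its summed score was 2972, 3754 and 3061 in Ctrl and 4195, 4467 and 4111 in Kmt5b sKO, without overlap, and its log2 fold change was 0.39 (SE 0.12, limma adjusted p = 0.0049), below the fold change needed for a call. Of 37 tested peaks 17 were called higher (45.9%), against 32.9% of all tested peaks. By length, 10 of 12 Exoc4 peaks under 2000 bp, 5 of 13 from 2000 to under 4000 bp and 2 of 12 longer ones were called, where the shares of all peaks were 59.5%, 25.7% and 6.25%. Among the called ones under 2000 bp, those at 33313600, 33406000, 33410400 and 33921400 had Ctrl means of 23.3, 26.7, 16.3 and 22.3. These entered the test only through their Kmt5b sKO values. The median score per kb of peak in Exoc4 was 27.9 for Ctrl and 38.1 for Kmt5b sKO. The isolated peaks of the 8 genes had medians of 27.9 and 59.7, the same as Exoc4 for Ctrl.

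Along Exoc4 the changes fell into stretches that were delimited after the values were seen and are given with no test. Over all tested peaks 32.9% were called higher, with 25.7% at 2000 to under 4000 bp and 6.25% at 4000 bp or more. In the first 300 kb, 10 of 16 tested peaks were called and the summed score was 1065, 1262 and 1072 in Ctrl and 1695, 1647 and 1637 in Kmt5b sKO. From 300 to 550 kb, 1 of 13 was called and the sums overlapped, at 1346, 1739 and 1369 against 1559, 1684 and 1487. Beyond 550 kb, 6 of 8 were called and the sums were 561, 753 and 620 against 941, 1136 and 987. Called peaks at 33313600, 33406000 and 33410400 in the first stretch and 33921400 in the last passed the level filter only through Kmt5b sKO. They are part of these counts and sums. The medians of the log2 fold change were 0.66, 0.17 and 0.63 from the first to the last stretch, and after centring they were 0.19, −0.31 and 0.15. Peaks in the middle were longer, with a median of 3800 bp against 2200 and 3100 bp. Among peaks of 3600 to 4200 bp alone, the single one in the first stretch, at chr6:33385800-33389799, had a log2 fold change of 0.062 and was not called, the 6 in the middle had log2 fold changes from −0.11 to 0.31 and 0 calls, and the 4 in the last stretch had 0.47 to 0.96 and 3 calls. The first stretch's longer peaks, at chr6:33378600-33384199 and chr6:33390800-33398199, were not called either, at 0.40 and 0.25, so its calls lay in shorter peaks. The length-matched peaks summed to 584, 717 and 640 in Ctrl and 653, 743 and 720 in Kmt5b sKO in the middle, and to 405, 544 and 459 against 715, 819 and 692 in the last stretch.

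**Figure D5:**
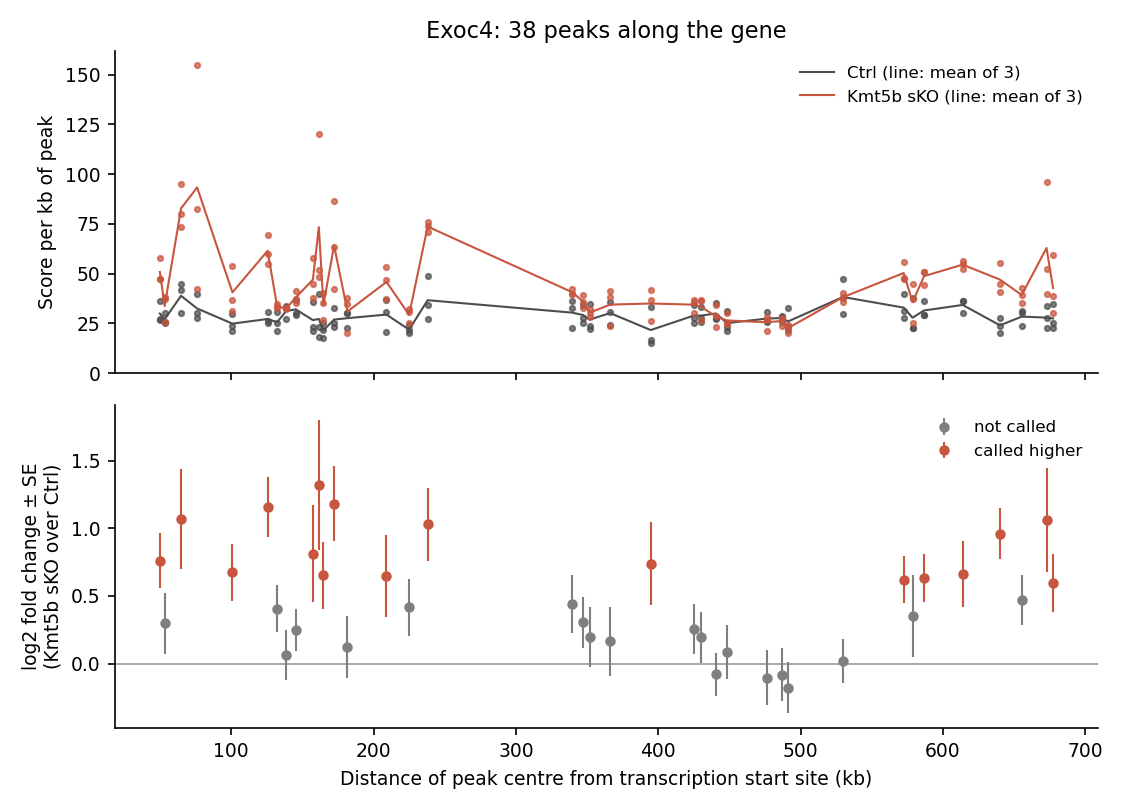
Exoc4 peaks by distance of the peak centre from the transcription start site in kb (horizontal axis). Upper panel, score per kb of peak in each of 3 Ctrl (dark) and 3 Kmt5b sKO (red) libraries, with lines through the means. Lower panel, log2 fold change ± SE of the 37 tested peaks, called peaks in red. Between 300 and 550 kb the values run from −0.18 to 0.74 with 1 call, and on either side 10 of 16 and 6 of 8 are called higher. The share over all tested peaks is 32.9%. Called peaks at 33313600, 33406000, 33410400 and 33921400 passed the level filter only through Kmt5b sKO. After centring, 2 Exoc4 peaks are called higher and 1 lower.

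The Exoc4 peak with the smallest adjusted p lay late in the gene, at chr6:33887200-33890999, with scores of 77, 106 and 91 in Ctrl and 171, 210 and 155 in Kmt5b sKO. The groups did not overlap and the log2 fold change was 0.96 (SE 0.19, limma adjusted p = 8e-06). An early peak at chr6:33373800-33375599 had a similar adjusted p and a larger change, from 47, 55 and 45 to 125, 99 and 108, a log2 fold change of 1.16. The peak with the highest mean score, at chr6:33390800-33398199, was 7400 bp long and went from 237 ± 30.4 to 281 ± 23.8 (SD, n = 3 each), which did not pass the test. The centres of these early peaks were 126 and 145 kb from the TSS.

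Of the 9 genes with a tested peak, Auts2 was the 1 in which none was called under the spike-in scaling. Of the 5 tested Auts2 peaks, 4 were 7400 to 39400 bp long. Among all tested peaks of 4000 bp or more, 6.25% were called higher. Auts2 encodes a nuclear protein that takes part in Polycomb complexes and in neuronal development. Its 4 neighbouring peaks ran from chr5:131434400 to chr5:131533399, a span of 99 kb of which 92.9% was peak, at the 3′ end of the 1106-kb gene, and the first extended 2.93 kb past the annotated end. The domain began 5.29 kb downstream of the annotated start of a shorter protein-coding Auts2 transcript, and 3 protein-coding transcripts in all start within the domain or at that point. Which transcript contributed the signal was not tested. The longest peak had scores of 1864, 2100 and 1755 in Ctrl and 1770, 2034 and 1918 in Kmt5b sKO, so that the groups overlapped widely, and its log2 fold change was 0.0025 (SE 0.13, limma adjusted p = 0.99). The peak with the smallest adjusted p among the 4, at chr5:131526000-131533399, had 276 ± 69.0 and 228 ± 27.5 (SD, n = 3 each) and a limma adjusted p of 0.20. In the intervening peak at chr5:131506800-131525599 each Ctrl library, at 1261, 1366 and 1130, was above each Kmt5b sKO library, at 1105, 1094 and 1102, by a log2 fold change of −0.18. After centring, 3 of the 4 were called lower, with log2 fold changes from −0.73 to −0.66, against 13.1% of all tested peaks. Under the spike-in scaling these 3, of 26400, 18800 and 7400 bp, had −0.21, −0.18 and −0.26. With all tested peaks binned by length, the lower quartile was −0.20 at 22800 bp, −0.12 at 12200 bp and −0.079 at 8600 bp. Whether the Auts2 peaks differ from other peaks of their length after centring was not tested. The last peak, at chr5:132117400-132118799, lay 584 kb away with scores of 41, 28 and 33 in Ctrl and 42, 38 and 50 in Kmt5b sKO and was not called.

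The central 200 bases of the called peaks with the smallest adjusted p, 1 per gene, are given on the sense strand (GRCm38.p6) in lower case, since no part was singled out. Their base composition differed widely. The Lrp1b window had 8.5% G and C, the Exoc4 window 52.5%, the Macrod2 window 30% and the Immp2l window 48%. By comparison the isolated peaks had a median GC content of 36.7%, the Exoc4 peaks 40.0%, the Auts2 domain 46.3% and all autosomal peaks 42.2%.
Lrp1b, chr2:41417600-41417799, strand -: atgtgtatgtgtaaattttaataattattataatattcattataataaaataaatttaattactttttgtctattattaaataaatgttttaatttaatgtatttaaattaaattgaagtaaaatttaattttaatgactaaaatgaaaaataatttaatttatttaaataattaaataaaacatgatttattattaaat
Exoc4, chr6:33889000-33889199, strand +: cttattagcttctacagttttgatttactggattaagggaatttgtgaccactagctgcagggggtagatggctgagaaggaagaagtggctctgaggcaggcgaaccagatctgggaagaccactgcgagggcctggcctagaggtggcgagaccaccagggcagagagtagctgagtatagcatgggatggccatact
Macrod2, chr2:140952100-140952299, strand +: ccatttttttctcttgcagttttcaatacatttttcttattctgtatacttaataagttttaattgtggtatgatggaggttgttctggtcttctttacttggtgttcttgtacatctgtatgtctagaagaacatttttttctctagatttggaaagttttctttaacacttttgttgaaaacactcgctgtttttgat
Immp2l, chr12:41894200-41894399, strand +: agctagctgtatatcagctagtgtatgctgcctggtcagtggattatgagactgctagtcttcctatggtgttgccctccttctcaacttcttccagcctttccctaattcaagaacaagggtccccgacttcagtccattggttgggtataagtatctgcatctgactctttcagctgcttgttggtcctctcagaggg

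A further list of 18 autosomal genes linked to fragile sites or of like size was compared for counts. Of these, 4 genes had no peak (Ccser1, Dab1, Esrrg and Csmd1) and 14 had 118 peaks between them. Among the 105 that were tested, 26 passed as higher (24.8%) and 0 as lower, and the middle log2 fold change was 0.16. Both values were below those of all tested peaks, 32.9% and 0.35. Nbea had 30 of these peaks and Cdh13 21. Cntnap2, Cdh13, Dlg2 and Ptprg were among the 5 genes with the smallest adjusted p for a called peak. In Cntnap2, a neurexin family gene with 2 peaks in 2245 kb, a peak rose to 89.0 ± 20.0 from 34.7 ± 3.79 (SD, n = 3 each), or 1.31 on the log2 scale (SE 0.26, limma adjusted p = 1.1e-05). In Dlg2, which encodes a synaptic scaffold, the peak went from 21 ± 6.56 to 59.7 ± 15.5, in Cdh13 (a cadherin) from 27.7 ± 9.45 to 68.3 ± 8.50, and in Ptprg (a receptor tyrosine phosphatase) from 58.7 ± 17 to 105 ± 14.1 (SD, n = 3 each). The Dlg2 and Cdh13 peaks, with Ctrl means under 30, passed the level filter only through Kmt5b sKO.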

How the data were processed

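DRIP-seq signal was analysed for 3 Ctrl and 3 Kmt5b sKO S9.6 libraries, grouped by their labels. The 2 input libraries were not used here. The authors trimmed reads with Trimmomatic 0.39, aligned them with STAR 2.7.3a to GRCm38 keeping unique alignments, removed duplicates with Picard 2.21.7, called peaks against input (SICER 0.0.41 in the submitters' processing notes, Epic2 in the study), unified them and summed signal per peak. The deposited score is that sum, scaled by Drosophila spike-in reads and rounded, so no count model was run and the depth behind a score is unknown. A score grows with peak length. The deposited distance of peak centre to TSS is a column of base pairs. Unique alignment and repeats can lower or blur scores in repeated sequence.

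Autosomal peaks with mean score over 30 were tested with limma 3.58.1 in R 4.3.3 (lmFit, eBayes with trend, two-sided, Benjamini-Hochberg over all 25815 peaks), and genes likewise on summed scores. The pseudocount was 1. Prior degrees of freedom were infinite, so variances came from the trend. Without the trend 29 of the 61 peaks were called higher (47.5%, against 33.6% of all peaks), and adjusted p values moved both ways. In that fit the limma adjusted p was 0.0014 for the Macrod2 peak at 140951400, 0.0051 for the Exoc4 peak at 33887200 and 0.042 for the Wwox peak at 115009800. The fit was tested on simulated data. Python 3.11.15, numpy 2.4.6, pandas 2.3.3 and matplotlib 3.10.9 were used. Of 8490 gene identifiers, 8483 were in GENCODE vM21, which gave gene lengths, exons and transcripts. Coordinates are printed as deposited, and a start may lie 1 base before a browser's. Sequences came from the GRCm38.p6 reference. A gene of the further list and a sequence window are not reported here.

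All 10 genes are described. Named peaks were, per gene, the smallest adjusted p, the highest mean score and every called peak where at most 3 were called. In the further list, genes were named by a called peak, at most 5, and genes with no or many peaks were named after their values were seen. Some Exoc4 and Auts2 peaks were also chosen after their values were seen. Members and lists were chosen with earlier results of these data known. Alternatives covered pseudocount, level filter, scaling, fold change, variance model, annotation, a replicate block and each library left out. The filter on the Ctrl mean, equal weight per gene for the median and the sum without Auts2 were chosen after seeing the data.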

Additional observations from a re-analysis of the deposited data

Results flagged for a closer look

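Dmd, the dystrophin gene and a known fragile site gene, lies on X and was outside the comparisons. Its 3 peaks had summed scores of 452, 1011 and 616 in Ctrl and 1319, 1415 and 1378 in Kmt5b sKO, a ratio of 1.98 of the mean in Kmt5b sKO to the mean in Ctrl, and the groups did not overlap. The ratio over all 399 X peaks was 1.19. The difference was not tested, since peaks on X were left out of the fit.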

How the results depend on the processing

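Among the peaks of the 10 genes, 30 were called higher. A mean score above 100 left 3 of 19 (15.8%, against 12.3% of all peaks in the same fit). Giving each library an equal total left 16 (26.2% against 21.6%), centring left 7 (11.5% against 9.61%), a fold change over 2 left 13 (21.3% against 14.2%), and the count was 19 to 29 with a library left out. The called lower count of 0 became 4 after centring, where 13.1% of all tested peaks were called lower. The median log2 fold change of 0.57 became 0.088 at a mean score above 100, below the 0.15 of all peaks at that level, 0.37 at equal totals, 0.097 after centring, 0.42 with the filter on the Ctrl mean and 0.71 with equal weight for each gene, and ranged from 0.51 to 0.67 with a library left out. Both scalings remove a shared shift by construction, and the stricter filter left fewer, longer peaks. Of the genes, 6 were called higher, 6 or 7 with a library left out, and after centring 1 higher and 1 lower. The ratio of summed score, 1.14, was reversed to 0.992 at equal totals and to 0.822 after centring, became 1.94 with equal weight for each gene and 1.43 without Auts2, and ranged from 1.10 to 1.21 with a library left out. Deviations of same-numbered libraries correlated between −0.027 and 0.011, and those of other pairs between −0.017 and 0.028. Such values near 0 cannot tell whether same-numbered libraries were prepared together. With the replicate block 29 peaks and 6 genes were higher, 0 lower, and the median was 0.57.

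Over 28 single values, namely the 19 tested named peaks and the 9 tested genes, 295 of 344 alternative values kept their direction and call, 33 lost the call, 7 gained one and 9 changed sign. The sign changes were Exoc4 after centring (−0.086) and its peak at 33390800 (−0.23), the Ctnna3 peak at 63497200 after centring (−0.12), and the Auts2 peak at 131434400 at equal totals (−0.20), after centring (−0.47) and in 4 fits without a library (−0.055 to −0.0027, the full range without a library being −0.055 to 0.074), none of which had been called. Wwox lost its gene call without Kmt5b sKO replicate 2, and the narrow Ctnna3 call was lost without Ctrl replicate 1, Ctrl replicate 3 or Kmt5b sKO replicate 3 and under the block. Low scores limit the isolated peaks, 7 of which were under the level filter.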
